A study of Danio rerio with 4 samples.

Results

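Genes biased to atrial myocardial cells are described here in the embryonic zebrafish heart, where 61 of 25434 genes in the files met the rule. The cells of the authors' Myocardium cluster were split by the heavy chain myosins of the chambers. A cell with more UMIs (unique molecular identifiers, 1 per captured transcript) of myh6 (ENSDARG00000090637) than of myh7l (ENSDARG00000079782) was taken as atrial, and a cell with the reverse as ventricular. Sums of UMIs per side and library were scaled by their total to the usual unit CPM, so that libraries of unequal depth can be compared. The genes were chosen by these values: a gene was taken when its mean atrial CPM was at least 30 and its (CPM + 5) ratio of atrial over ventricular cells was at least 2 in all 4 libraries. Left out were both myosins and 12 further genes, among them the atrial muscle genes smtnl1 and TNNC1 and 6 of the 7 sinoatrial genes used below, and 11 of these 14 met the same limits. Of the 3162 remaining genes with a mean atrial CPM of at least 30, the 61 are 1.93%. Because these values chose the genes, the differences between the sides are given as a description without any test.

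Hearts were taken at 72 hours post fertilisation (hpf) and at 48 hpf from embryos of the enhancer trap line sqet31Et or the line sqet33mi59BEt, each crossed to Tg(myl7:mRFP). In both trap lines EGFP marks cells of the pacemaker regions, and in every embryo the myl7 promoter drives mRFP in cardiomyocytes. Tricaine was used to anaesthetise all embryos, and each of the 4 libraries, 1 per cross and stage, came from a pool of whole hearts. The libraries of the 2 crosses at a stage served as replicates (n = 2 per stage), which the study calls pseudo-replicates, so that p-values measure the spread between such pools and the line is part of that spread. Where 2 values stand for a stage, sqet31Et is followed by sqet33mi59BEt.

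The atrium of the zebrafish heart receives the venous blood through the sinus venosus and passes it through the atrioventricular canal to the ventricle. Its cardiomyocytes contract before those of the ventricle, carry another myosin heavy chain and differ in their calcium handling and in their ion channels. The pacemaker cells of the sinoatrial region lie where the sinus venosus joins the atrium, and express atrial myosin, so that they count as atrial under this rule. Signals such as BMP, Wnt, FGF and retinoic acid pattern the chambers and the canal between them.

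Of 3779 Myocardium cells, 1034 were atrial (308 and 207 at 72 hpf, 393 and 126 at 48 hpf) and 2275 were ventricular (827 and 483 at 72 hpf, 683 and 282 at 48 hpf). The atrial sums held 883116 and 259138 UMIs at 72 hpf and 2416854 and 371571 UMIs at 48 hpf, and the ventricular sums between 603992 and 3020826. Median UMIs per atrial cell were 2263 and 1005 at 72 hpf and 6255 and 2321 at 48 hpf, with a median mitochondrial share of 17.8% and 13.3% at 72 hpf and 3.26% and 8.70% at 48 hpf. Libraries shared between 28 and 71 barcodes pairwise, of which 1 was a Myocardium cell. The 4 matched atrial markers summed to between 10773 and 21345 CPM in atrial cells and to between 2384 and 9422 CPM in ventricular cells, and the 5 matched ventricular markers to between 521 and 2310 CPM in atrial cells and to between 15777 and 21094 CPM in ventricular cells. Since these lists contain the myosins of the rule, they were also summed without them. The 3 atrial markers left then summed to between 7457 and 14170 CPM in atrial cells and to between 2301 and 9369 CPM in ventricular cells, and the 4 ventricular markers left to between 445 and 2024 CPM in atrial cells and to between 6113 and 11910 CPM in ventricular cells. In all 4 libraries each of these 3 markers was higher and each of these 4 lower in atrial cells. All 3 matched epicardial markers together reached 3.86 to 21.5 CPM in atrial and 0 to 34.8 CPM in ventricular cells, and all 4 matched leukocyte markers 2.26 to 7.72 CPM in atrial and 2.65 to 11.6 CPM in ventricular cells. Erythrocyte markers (4 matched) reached 3311 CPM in atrial and 5106 CPM in ventricular cells of the 72 hpf sqet33mi59BEt library.

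Across the 61 genes, mean atrial CPM lay between 31.4 and 1974 with a median of 68.6. There were 23 genes at 100 CPM or more and 2 at 1000 or more. The median over genes of the median library ratio was 3.66, beside 1.14 over all genes with a mean atrial CPM of at least 30. That median ratio was 2 to 3 for 17 genes, 3 to 5 for 28, 5 to 10 for 15 and above 10 for 1 gene. In 52 of the 61, every atrial library lay above every ventricular library. This count largely restates the rule, which asks for a ratio of at least 2 in each library, and the share over all genes was not taken. All 61 identifiers had a symbol in the Ensembl-based name table, 38 of them the human symbol of the gene, which is printed as the table gives it. As 16 of these symbols are also held by another zebrafish copy, the identifier is given and no copy letter is added.

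**Figure D1:**
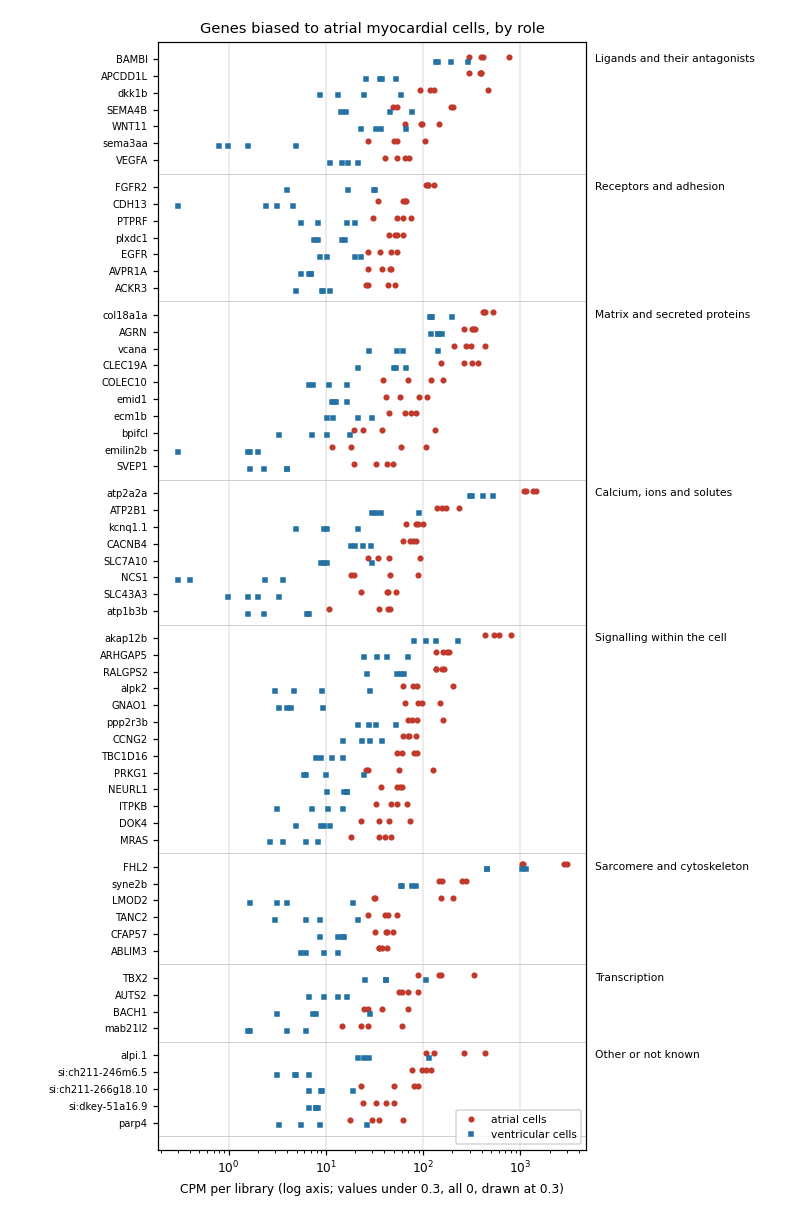
CPM of 60 of the 61 genes in atrial cells (red circles) and in ventricular cells (blue squares) of the 4 libraries, 1 point per library, on a log axis, with genes ordered by role and by mean atrial CPM within a role. FHL2 and atp2a2a lie farthest right. By the ratio of the rule, which is not the gap drawn here, si:ch211-246m6.5, GNAO1 and APCDD1L have the largest lowest values. Levels of 0 are drawn at the left edge.

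The sarcomere and its attachments held the most abundant member. FHL2 (ENSDARG00000042018), a LIM domain protein that binds titin and the Z disc, had 1075 and 1042 CPM at 72 hpf and 2795 and 2985 CPM at 48 hpf in atrial cells, against 453 and 454 CPM at 72 hpf and 1134 and 1033 CPM at 48 hpf in ventricular cells. Its ratio was narrow, between 2.28 and 2.88, and at 48 hpf the ventricular cells carried as much as the atrial cells did at 72 hpf. LMOD2 (ENSDARG00000045634), a leiomodin that lengthens thin filaments, had 31.7 and 30.9 CPM at 72 hpf and 202 and 153 CPM at 48 hpf in atrial cells, against 3.99 and 1.66 CPM at 72 hpf and 19.2 and 3.15 CPM at 48 hpf in ventricular cells. Thus the 48 hpf atrial cells stood far above every other sum for LMOD2, and its ratio lay between 4.08 and 19.4. The nuclear envelope spectrin syne2b and the actin binding protein ABLIM3 were members too, as were TANC2, a scaffold protein, and CFAP57, named after cilia and flagella. These 6 genes had median ratios between 2.41 and 6.98.

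Of 33 names in a list of sarcomere and Z disc genes, 22 were matched to an identifier, 18 of these had a mean atrial CPM of at least 30, and none was a member. FHL2 was not matched from that list since its symbol belongs to 2 identifiers. In the 18 expressed genes the median ratio was 0.92, and smtnl1 and TNNC1, which had ratios of at least 2 in all libraries, were among the genes left out by the rule. Of the 17 names for oxidative and fatty acid metabolism 13 were expressed at this level, with a median ratio of 0.81 and no member. None of the 5 matched retinoic acid genes reached 30 CPM.

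Roles, assigned from general knowledge once the members were known, serve only to order the genes here, and 8 of them have to do with calcium, ions or solutes. The calcium pump of the sarcoplasmic reticulum, atp2a2a (ENSDARG00000029439), had 1130.1 and 1088 CPM at 72 hpf and 1448 and 1343 CPM at 48 hpf in atrial cells, against 516 and 412 CPM at 72 hpf and 306 and 318 CPM at 48 hpf in ventricular cells. The lowest atrial library for atp2a2a was above the highest ventricular library, and its ratio was larger at 48 hpf (4.67 and 4.18) than at 72 hpf (2.18 and 2.62) in both lines. The voltage-gated potassium channel kcnq1.1 (ENSDARG00000059798) had 99.6 and 88.8 CPM at 72 hpf and 85.2 and 67.3 CPM at 48 hpf in atrial cells, against 10.4 and 21.5 CPM at 72 hpf and 4.97 and 9.46 CPM at 48 hpf in ventricular cells. Human KCNQ1 carries the slow delayed rectifier current and is known for inherited arrhythmia. ATP2B1, a calcium pump of the plasma membrane, averaged 174 ± 40.2 CPM in atrial and 47.7 ± 29.0 CPM in ventricular cells (SD over 4 libraries, as in the averages that follow).

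Lower in level, the calcium sensor NCS1 (ENSDARG00000055229) had 18.1 and 19.3 CPM at 72 hpf and 88.5 and 45.8 CPM at 48 hpf in atrial cells, against 0.399 and 0 CPM at 72 hpf and 3.64 and 2.37 CPM at 48 hpf in ventricular cells. Its ventricular level was close to 0 in every library. The Na/K ATPase beta subunit atp1b3b (ENSDARG00000042837) had 45.3 and 34.7 CPM at 72 hpf and 43.9 and 10.8 CPM at 48 hpf in atrial cells, against 6.38 and 6.62 CPM at 72 hpf and 2.32 and 1.58 CPM at 48 hpf in ventricular cells. The 48 hpf sqet33mi59BEt library was the lowest of the atrial libraries for it. CACNB4, a beta subunit of voltage-gated calcium channels, averaged 74.7 ± 9.81 CPM in atrial and 22.8 ± 4.87 CPM in ventricular cells. The amino acid transporter SLC7A10 and the membrane transporter SLC43A3 averaged 49.5 and 40.1 CPM in atrial cells. Of the 30 listed names for calcium handling and excitation, 19 were matched, 13 were expressed at 30 CPM or more, and atp2a2a, kcnq1.1 and atp1b3b were members. The median ratio of the 13 was 1.53.

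Ligands and their antagonists numbered 7. APCDD1L (ENSDARG00000075557), a homologue of the membrane-bound Wnt inhibitor APCDD1, had 298 and 386 CPM at 72 hpf and 393 and 396 CPM at 48 hpf in atrial cells, against 25.9 and 38.1 CPM at 72 hpf and 35.8 and 52.1 CPM at 48 hpf in ventricular cells. With ratios between 7.02 and 9.79 it combined a high level with a wide gap. The secreted Wnt antagonist dkk1b (ENSDARG00000045219) had 91.7 and 459 CPM at 72 hpf and 116 and 129 CPM at 48 hpf in atrial cells, against 8.77 and 59.6 CPM at 72 hpf and 24.5 and 13.4 CPM at 48 hpf in ventricular cells. Its 72 hpf sqet33mi59BEt library stood apart on both sides, while the ratio of that library stayed between those of the others. BAMBI (ENSDARG00000055381), a pseudoreceptor that dampens BMP and TGF-beta signals, had 298 and 417 CPM at 72 hpf and 759 and 396 CPM at 48 hpf in atrial cells, against 143 and 194 CPM at 72 hpf and 286 and 136 CPM at 48 hpf in ventricular cells, and its lowest ratio of 2.04 lay just above the limit.

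Among the guidance cues, SEMA4B (ENSDARG00000074414), a membrane-bound semaphorin, had 192 and 201 CPM at 72 hpf and 49.2 and 53.8 CPM at 48 hpf in atrial cells, against 45.9 and 76.2 CPM at 72 hpf and 15.9 and 14.2 CPM at 48 hpf in ventricular cells. Both stages were thus separated on either side of the heart. The secreted semaphorin sema3aa (ENSDARG00000019235), which in the nervous system repels axons, had 49.8 and 27.0 CPM at 72 hpf and 105 and 53.8 CPM at 48 hpf in atrial cells, against 1.60 and 4.97 CPM at 72 hpf and 0.993 and 0.789 CPM at 48 hpf in ventricular cells. WNT11, a ligand of non-canonical Wnt signalling, and the growth factor VEGFA averaged 101 and 57.9 CPM in atrial cells, with ratios of at most 2.696 and 3.48.

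Matrix and secreted proteins were 10, of which 8 had their highest mean CPM in atrial cells among all groups of cells. The basement membrane collagen col18a1a (ENSDARG00000036558) had 409.9 and 428 CPM at 72 hpf and 419.6 and 519 CPM at 48 hpf in atrial cells, against 120.4 and 118 CPM at 72 hpf and 124 and 197 CPM at 48 hpf in ventricular cells. AGRN (ENSDARG00000079388), the heparan sulfate proteoglycan agrin, had 262 and 320.3 CPM at 72 hpf and 341 and 323 CPM at 48 hpf in atrial cells, against 120.1 and 157 CPM at 72 hpf and 141 and 140.4 CPM at 48 hpf in ventricular cells. Neither gene was called between stages in the test below, and AGRN met the limit most narrowly of all members, with a lowest ratio of 2.00. The proteoglycan vcana (ENSDARG00000103515), a versican of the cardiac jelly between myocardium and endocardium, had 205 and 436 CPM at 72 hpf and 309 and 275 CPM at 48 hpf in atrial cells, against 27.9 and 61.3 CPM at 72 hpf and 141 and 53.6 CPM at 48 hpf in ventricular cells.

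CLEC19A (ENSDARG00000115545), a C-type lectin, had 152 and 262 CPM at 72 hpf and 317 and 366 CPM at 48 hpf in atrial cells, against 21.5 and 49.7 CPM at 72 hpf and 66.2 and 52.1 CPM at 48 hpf in ventricular cells. The collectin COLEC10 (ENSDARG00000104752), known in mammals as a secreted lectin of innate immunity, had 38.5 and 69.5 CPM at 72 hpf and 120.4 and 161 CPM at 48 hpf in atrial cells, against 10.8 and 6.62 CPM at 72 hpf and 7.28 and 16.6 CPM at 48 hpf in ventricular cells. For both lectins the atrial and ventricular libraries did not overlap. The elastin fibre glycoprotein emilin2b averaged 48.9 ± 43.9 CPM in atrial cells against 1.30 ± 0.888 CPM in ventricular cells, and its values at each stage follow below. Further members were emid1, which holds an EMI domain, the matrix protein ecm1b, bpifcl and SVEP1, a matrix protein of lymphatic and valve biology.

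Proteins that signal within the cell formed the largest role with 13 genes. The scaffold akap12b (ENSDARG00000055678), which anchors protein kinase A, had 533 and 807 CPM at 72 hpf and 435 and 600.2 CPM at 48 hpf in atrial cells, against 134 and 227 CPM at 72 hpf and 80.8 and 106 CPM at 48 hpf in ventricular cells. GNAO1 (ENSDARG00000016676), the G protein alpha subunit Go that couples to muscarinic and other inhibitory receptors, had 151 and 65.6 CPM at 72 hpf and 98.1 and 88.8 CPM at 48 hpf in atrial cells, against 4.39 and 3.31 CPM at 72 hpf and 9.27 and 3.94 CPM at 48 hpf in ventricular cells. Its lowest ratio of 7.22 was the next largest after si:ch211-246m6.5. The alpha kinase alpk2 had 87.2 and 205 CPM at 72 hpf and 62.1 and 78.0 CPM at 48 hpf in atrial cells, against 9.17 and 28.1 CPM at 72 hpf and 2.98 and 4.73 CPM at 48 hpf in ventricular cells. The Rab GTPase activating protein TBC1D16 was steady, with 53.8 to 87.2 CPM in atrial and 7.89 to 14.9 CPM in ventricular cells. Other members of this role were the GTPase regulators ARHGAP5 and RALGPS2, the small GTPase MRAS, the cGMP-dependent kinase PRKG1, the phosphatase subunit ppp2r3b, the inositol trisphosphate kinase ITPKB, the cyclin CCNG2, the ubiquitin ligase NEURL1 and the adaptor DOK4.

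Genes of transcription were 5, and receptors or adhesion proteins 7. The repressor TBX2 (ENSDARG00000006120) had 89.5 and 147 CPM at 72 hpf and 331 and 153 CPM at 48 hpf in atrial cells, against 25.1 and 41.4 CPM at 72 hpf and 107 and 41.8 CPM at 48 hpf in ventricular cells. Its symbol belongs to 2 zebrafish copies, and this factor is otherwise known from the atrioventricular canal. The T-cadherin CDH13, which lacks a cytoplasmic tail, averaged 57.2 ± 15.4 CPM in atrial cells against 2.55 ± 1.94 CPM in ventricular cells. FGFR2 and EGFR, receptor tyrosine kinases, averaged 115 and 40.8 CPM in atrial cells, and PTPRF, plxdc1, AVPR1A and ACKR3 between 36.8 and 55.1 CPM. The factors BACH1, AUTS2 and mab21l2 averaged 39.5, 68.6 and 31.4 CPM in atrial cells.

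The last 5 genes were given no role. The gene si:ch211-246m6.5 (ENSDARG00000011673), named after its clone, had 97.4 and 119.6 CPM at 72 hpf and 76.1 and 108 CPM at 48 hpf in atrial cells, against 4.79 and 6.62 CPM at 72 hpf and 4.97 and 3.15 CPM at 48 hpf in ventricular cells. With ratios between 8.14 and 13.8 it was the most one-sided member in its lowest library. The alkaline phosphatase alpi.1 (ENSDARG00000015273) had 129 and 108 CPM at 72 hpf and 429.9 and 264 CPM at 48 hpf in atrial cells, against 21.5 and 24.8 CPM at 72 hpf and 116 and 27.6 CPM at 48 hpf in ventricular cells. Members just inside the ratio limit were AGRN, ecm1b and BAMBI with lowest ratios of 2.00, 2.03 and 2.04. Just outside it lay tiparp, mybphb and DAG1 with 1.98, 1.92 and 1.92.

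The same ratio was then taken in cell barcodes that the authors did not keep, which the rule had not used. Barcodes with at least 200 genes and at least 1% of their UMIs in the pan-cardiac genes myl7, cmlc1, tnnt2a and ttn.2 were split by the same myosins. This gave 322 and 134 atrial barcodes at 72 hpf and 314 and 679 at 48 hpf, and 295 to 1123 ventricular barcodes per library. The 1% limit was passed by 94.6% of annotated Myocardium cells and by 2.699% of other annotated cells. In these barcodes 35 of the 61 genes (57.4%) had a ratio of at least 2 in all 4 libraries. Over 3131 genes with a mean atrial CPM of at least 30 this share was 1.34%. A ratio above 1 in all 4 libraries was found for 60 of 61, with no share of all genes taken at that limit. The median of the median ratios was 3.34 for the 61 genes and 1.14 for all. CCNG2 was the exception, with ratios between 0.851 and 1.85. The genes emilin2b (3.49 to 17.0), si:ch211-246m6.5 (5.81 to 11.8), CDH13 (4.39 to 9.51), APCDD1L (6.32 to 8.62) and SLC43A3 (6.16 to 8.84) kept high ratios, whereas FHL2 (1.95 to 2.35) and AGRN (1.47 to 2.14) had lower ones. On the atrial side these barcodes had a median of 623 and 415.5 genes and 34.9% and 31.7% mitochondrial UMIs at 72 hpf, and of 2790.5 and 2760 genes and 2.01% and 4.81% mitochondrial UMIs at 48 hpf. They come from the same 4 libraries and may hold doublets, so no test was run.

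**Figure D2:**
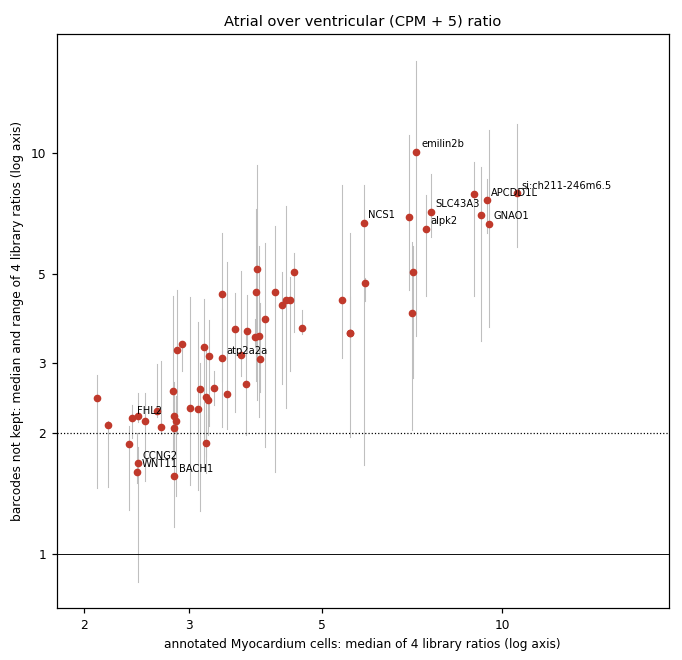
Atrial over ventricular (CPM + 5) ratio of each of the 61 genes in annotated Myocardium cells (x axis, median of 4 libraries) and in barcodes that the authors did not keep (y axis, point at the median and grey line over the range of 4 libraries), both on log axes. A dotted line marks a ratio of 2 and a solid line a ratio of 1, below which only the lowest library of CCNG2 reached.

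Across the heart, many members were not restricted to the atrium. Mean CPM was compared over 19 groups of cells: atrial and ventricular Myocardium cells and the 17 other clusters of the authors. For 38 of the 61 genes it was highest in atrial cells, beside 12.8% of the 3162 genes with a mean atrial CPM of at least 30, and for 24 it was at least 2-fold above each of the 17 other clusters on the (CPM + 5) scale. Only APCDD1L and atp2a2a exceeded these clusters more than 10-fold, with 368 and 1252 CPM in atrial cells against 16.3 and 73.7 CPM in Resident fibroblasts, the next cluster for both. As the rule sets atrial above ventricular cells, these counts are a description. Shares over all genes at the 2-fold and 10-fold limits were not taken. FHL2 had 769 CPM in ventricular cells, its next group, and averaged 259 CPM in Resident fibroblasts. That average rests mostly on the 48 hpf sqet31Et library, with 12.5 and 36.4 CPM at 72 hpf and 879 and 106 CPM at 48 hpf. MRAS was highest in atrial cells by a small margin, at 35.0 CPM against 34.9 CPM in the AV cushion.

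The remaining 23 genes were highest elsewhere, and 11 of them in Epicardium, which was the highest group for 11.2% of the 3162 genes. VEGFA averaged 57.9 CPM in atrial cells, against 455 and 454 CPM at 72 hpf and 235 and 212 CPM at 48 hpf in Epicardium. Epicardium held 245 and 300 cells at 72 hpf but 33 and 15 cells at 48 hpf. EGFR averaged 40.8 CPM in atrial cells against 134 CPM in Epicardium, and PTPRF 55.1 CPM in atrial cells against 144 CPM in Epicardium. For akap12b the Epicardium had 1589 and 1790.1 CPM at 72 hpf and 632 and 495 CPM at 48 hpf, so that the 48 hpf levels overlapped those of the atrial cells. Endothelial cells and Endothelial precursors, at means of 909 and 796 CPM, also exceeded the atrial mean of 594 CPM for akap12b. The other 7 genes highest in Epicardium were ARHGAP5, ecm1b, SLC7A10, TANC2, SLC43A3, BACH1 and ACKR3.

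Cardiac peripheral nerves were the highest group for 4 genes, GNAO1, AUTS2, atp1b3b and mab21l2. The last, a developmental regulator of the eye and body wall, had 82.2 and 373 CPM there at 72 hpf and 558 and 819.8 CPM at 48 hpf, and was the member that atrial cells trailed most (on average 31.4 CPM in atrial cells against 458 CPM in the nerves). In the Bulbus arteriosus, emid1 had 529.9 and 767 CPM at 72 hpf and 50.04 and 42.0 CPM at 48 hpf, and the 48 hpf values were below those of atrial cells. FGFR2 was likewise highest in the Bulbus arteriosus (205 CPM). ATP2B1, si:dkey-51a16.9 and parp4 were highest in the AV cushion, WNT11 in Mesoderm progenitors and CCNG2 in Leukocytes.

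Erythrocytes were set beside the atrial cells as a cell type of another kind. What part of their level is RNA free in the suspension was not tested. Mean CPM in atrial cells exceeded that in Erythrocytes for all 61 genes and at least 2-fold for 56. For akap12b, ATP2B1, VEGFA, ACKR3 and mab21l2 the (CPM + 5) ratio of atrial cells over Erythrocytes was below 2, between 1.17 and 1.90. Ventricular cells averaged less than Erythrocytes for 23 genes, and in each of the 4 libraries for 6. The rule asks for a high atrial and a lower ventricular level and so favours these outcomes. Shares over all genes were not taken for these counts, which are a description only.

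**Figure D3:**
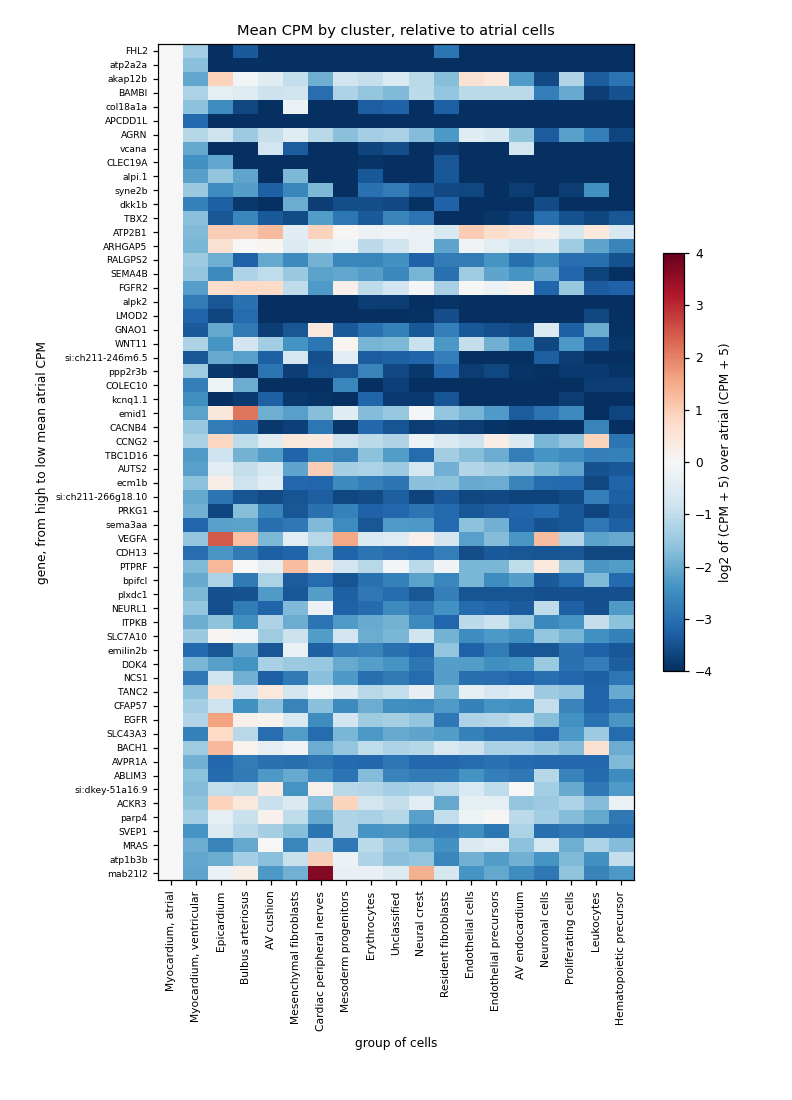
Mean CPM of 60 of the 61 genes (rows, from high to low mean atrial CPM) in 19 groups of cells (columns), as log2 of (CPM + 5) relative to atrial Myocardium cells in the leftmost column, with colours limited to 4 either way. Blue is lower and red higher than in atrial cells, and red cells are seen in Epicardium, Bulbus arteriosus and Cardiac peripheral nerves, the darkest for mab21l2.

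Development of the atrial levels was followed by comparing the 72 hpf with the 48 hpf libraries within atrial cells. The rule did not use this contrast, but its limit of 30 CPM was set on the mean of the same atrial sums. At 72 hpf emilin2b and NCS1 averaged 14.8 and 18.7 CPM, and at 48 hpf PRKG1 averaged 26.3 CPM. These genes thus reached the limit through the stage at which they were higher. How far the counts below follow from the rule was not tested. In edgeR's quasi-likelihood test with Benjamini-Hochberg adjustment over 5106 genes, 2 of the 61 members were higher and 5 lower at 72 hpf (adjusted p below 0.05), beside 3.80% of all genes higher and 0.979% lower. The median log2 fold change was -0.22 over the members and -0.00 over all genes tested. In 14 members both 72 hpf libraries lay above both 48 hpf libraries and in 25 below, where all genes gave 23.2% and 25.1%. A sum over cells does not tell fewer expressing cells from less RNA per cell.

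SEMA4B was higher at 72 hpf, with a change of 1.95 ± 0.34 on the log2 scale (± SE here and below, adjusted p = 0.00616). It was the largest positive change among the members, at 192 and 201 CPM at 72 hpf against 49.2 and 53.8 CPM at 48 hpf. PRKG1, the kinase activated by cGMP, had 56.6 and 127 CPM at 72 hpf against 25.7 and 26.9 CPM at 48 hpf, a log2 fold change of 1.69 ± 0.41 (adjusted p = 0.0362). For both genes the libraries of the stages did not overlap.

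LMOD2 was lower at 72 hpf by a log2 fold change of -2.48 ± 0.37 (adjusted p = 0.00246), the call with the lowest adjusted p among the members. For emilin2b, 18.1 and 11.6 CPM at 72 hpf stood against 107 and 59.2 CPM at 48 hpf (log2 fold change -2.36 ± 0.46, adjusted p = 0.0130). NCS1 fell by 1.89 ± 0.45 on the log2 scale (adjusted p = 0.0337). The 72 hpf values rest on 28 and 8 UMIs for LMOD2, 16 and 3 for emilin2b and 16 and 5 for NCS1. Both 48 hpf libraries of emilin2b met the filter on low counts, but not both 72 hpf libraries, so its size is uncertain. The alkaline phosphatase alpi.1 (-1.52 ± 0.37, adjusted p = 0.0362) and COLEC10 (-1.47 ± 0.38, adjusted p = 0.0430) were also lower at 72 hpf. In each of these 5 genes both 72 hpf libraries lay below both 48 hpf libraries. FHL2 had a log2 fold change of -1.45 ± 0.40 that did not pass (adjusted p = 0.0552), and atp2a2a one of -0.33 ± 0.37 (adjusted p = 0.682). Leaving out the 48 hpf sqet31Et library, which holds the most atrial UMIs, gave 0 members higher and 3 lower, LMOD2 and COLEC10 among them. SEMA4B missed the threshold only there (adjusted p = 0.0549), and its log2 fold change was at least 1.73 under all 13 alternatives. LMOD2 was called under each of its 13 alternatives, at log2 fold changes between -2.79 and -2.28. The other 5 calls each were lost under 1 to 6 alternatives, most often for COLEC10.

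In the barcodes that the authors did not keep, the atrial side gave the same order of stages without overlap for 6 of these 7 genes. The share over all genes was not taken there, while in annotated atrial cells 23.2% lay above and 25.1% below without overlap. These barcodes come from the same 4 libraries, so their values are a description only. LMOD2 had 37.2 and 24.8 CPM at 72 hpf against 156 and 125 CPM at 48 hpf, and SEMA4B had 159 and 99.2 CPM at 72 hpf against 26.4 and 35.5 CPM at 48 hpf. COLEC10 overlapped there, with 30.1 and 77.9 CPM at 72 hpf against 67.5 and 145 CPM at 48 hpf.

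Depth and other markers moved with stage. Median UMIs per atrial cell were lower and the mitochondrial share higher at 72 hpf, as given above, and the 4 liver markers summed to 1126 and 2203 CPM at 72 hpf against 9.93 and 16.1 CPM at 48 hpf in atrial cells. Endothelial markers (5 matched) were also higher, at 213 and 282 CPM at 72 hpf against 46.3 and 80.7 CPM at 48 hpf, and so were those of fibroblasts and epidermis (5 matched), at 283 and 278 CPM at 72 hpf against 74.5 and 124 CPM at 48 hpf. The sums that were lower at 72 hpf were those of muscle. Myocardium markers (5 matched) had 27038 and 26291 CPM at 72 hpf against 62734 and 48298 CPM at 48 hpf, and the atrial markers 10773 and 13746 CPM at 72 hpf against 19923 and 21345 CPM at 48 hpf. Skeletal muscle markers (3 matched) had 1021 and 506 CPM at 72 hpf against 2767 and 1870 CPM at 48 hpf, and bulbus and smooth muscle markers (3 matched) 134 and 84.9 CPM at 72 hpf against 551 and 544 CPM at 48 hpf. Nearly all of the former sum was ckma, which averaged 1541 CPM in atrial and 1807 CPM in ventricular cells. Most of the latter was acta2, at 307 and 275 CPM. Neither sum therefore stands for skeletal or smooth muscle as such. With every cell thinned to 500 UMIs, 1 member was called higher and 2 lower. Without mitochondrial genes 2 members were called higher and 7 lower. The shares of all genes in these fits are not given here. The part of these other transcripts in the calls was not tested.

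Ventricular cells, in which the members are low, allowed the same test for 51 of the 61 members over 7982 genes. SEMA4B was higher at 72 hpf there too (log2 fold change 1.77 ± 0.35, adjusted p = 0.0117), and no other member passed, beside 3.18% of genes higher and 0.814% lower. FHL2 (-1.42 ± 0.39, adjusted p = 0.0649) and alpi.1 (-1.82 ± 0.53, adjusted p = 0.0909) missed the threshold. LMOD2, emilin2b and NCS1 had too few ventricular UMIs to be tested. Whether the change with stage differed between the sides was not tested.

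**Figure D4:**
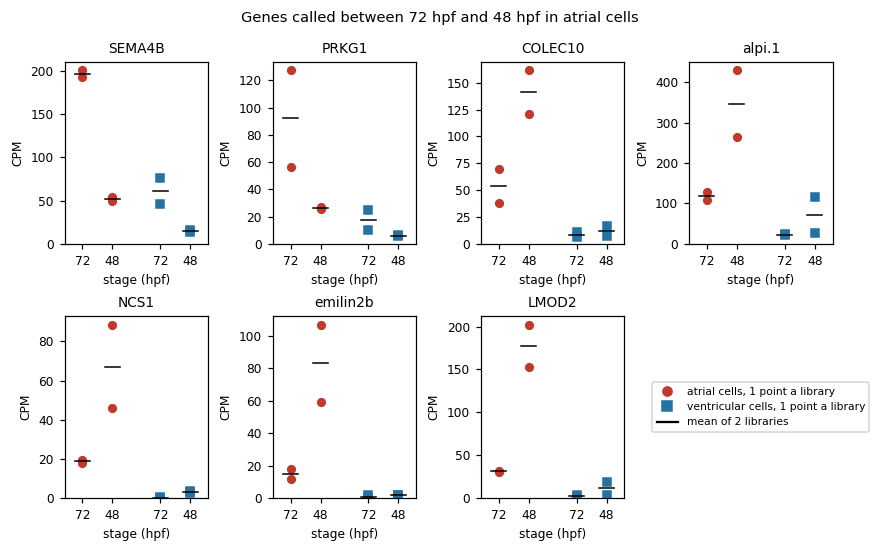
CPM of the 7 genes called between 72 hpf and 48 hpf in atrial cells, with 1 point per library for atrial cells (red circles) and ventricular cells (blue squares) and a bar at the mean of 2 libraries. In atrial cells (left pair of columns in each panel) the stages do not overlap, and at each stage the ventricular points (right pair) lie below the atrial points.

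Some atrial cells carried genes of the sinoatrial region. Atrial cells with UMIs of at least 2 of 7 sinoatrial genes (ISL1, SHOX2, VSNL1, lyve1a, TBX18, CHRM2 and FGF13, each 1 identifier) were set against atrial cells with none, within each library. There were 44 and 10 such cells at 72 hpf and 107 and 11 at 48 hpf, against 191 and 164 at 72 hpf and 189 and 96 at 48 hpf with none. Cells with at least 2 of these genes are part of the atrial sums that chose the members, so the rule favoured genes high in them. The counts and the median over members below may therefore follow in part from the rule, and how far was not tested. Of the 51 members that could be tested among 2376 genes, 14 were higher and 0 lower in edgeR's quasi-likelihood test with the library as a block, beside 3.24% of all genes higher and 1.22% lower. At an unadjusted p below 0.05 there were 4 members lower, with no share of all genes taken at that limit. DESeq2 called 13 members higher and 0 lower, and the share of all genes in that fit is not given here. The median log2 fold change was 0.65 over the members tested and -0.03 over all genes. A total of 28 members were higher in 4 of 4 libraries and 3 were lower in all 4, where all genes gave 18.0% and 11.4%. Leaving out the 48 hpf sqet31Et library, which holds most of the sinoatrial gene-positive cells, left 9 members higher, again without a share of all genes.

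MRAS, a Ras-related GTPase, had 60.7 and 206 CPM at 72 hpf and 101 and 368 CPM at 48 hpf in the sinoatrial gene-positive cells, against 4.05 and 30.1 CPM at 72 hpf and 1.098 and 0 CPM at 48 hpf in cells with none. Of all its atrial UMIs, the positive cells held 11 of 16 and 3 of 12 at 72 hpf and 79 of 85 and 14 of 15 at 48 hpf, and the cells with none 2 and 6 at 72 hpf and 1 and 0 at 48 hpf. MRAS was called higher (adjusted p = 3.24e-05), but it passed the filter on low counts through the positive cells, and with so few UMIs in cells with none no size is given to its difference. The beta subunit atp1b3b had 138 and 68.6 CPM at 72 hpf and 124 and 52.6 CPM at 48 hpf in the positive cells, against 16.2 and 25.1 CPM at 72 hpf and 3.29 and 3.82 CPM at 48 hpf in cells with none (adjusted p = 4.17e-05). It too passed the filter through the positive cells and is given no size, as cells with none held 8 and 5 UMIs at 72 hpf and 3 and 1 UMIs at 48 hpf. The sqet33mi59BEt values of atp1b3b in positive cells rest on 1 UMI at 72 hpf and 2 UMIs at 48 hpf.

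SLC43A3, a membrane transporter, had 110.4 and 206 CPM at 72 hpf and 97.1 and 78.9 CPM at 48 hpf in positive cells, against 28.4 and 10.0 CPM at 72 hpf and 14.3 and 15.3 CPM at 48 hpf in cells with none (adjusted p = 2.81e-04). SLC43A3 also passed the filter on low counts through the positive cells and is given no size. Cells with none held 14 and 2 of its UMIs at 72 hpf and 13 and 4 at 48 hpf. For sema3aa there were 132 and 68.6 CPM at 72 hpf and 212 and 316 CPM at 48 hpf in positive cells, against 24.3 and 20.1 CPM at 72 hpf and 53.8 and 11.5 CPM at 48 hpf in cells with none (log2 fold change 2.35 ± 0.36, adjusted p = 6.44e-04). In both genes every positive sum exceeded every sum of cells with none, but the positive cells of sqet33mi59BEt held 3 UMIs of SLC43A3 at each stage and 1 UMI of sema3aa at 72 hpf. The gene si:dkey-51a16.9 (adjusted p = 6.56e-04) followed, but passed the filter through the positive cells as well and is given no size. Cells with none held 10 and 8 of its UMIs at 72 hpf and 17 and 4 at 48 hpf. Next came bpifcl (log2 fold change 2.05 ± 0.34, adjusted p = 0.00106), which belongs to a family of lipid-binding secreted proteins. The other 8 genes called were NCS1, ecm1b, CCNG2, ATP2B1, BAMBI, COLEC10, CLEC19A and FGFR2, with log2 fold changes between 1.07 and 1.97, and all 14 were higher in 4 of 4 libraries. Of these 8, FGFR2 kept its call under 5 of 12 alternatives, CLEC19A under 8 of 13, COLEC10 under 8 of 12 and the rest under at least 9. For bpifcl and NCS1 the 72 hpf sqet33mi59BEt value of positive cells is likewise 1 UMI. Outside the 48 hpf sqet31Et library, cells with none held at most 12 UMIs of sema3aa, bpifcl or NCS1 per library. The sizes given for these genes thus rest on few UMIs, and they too passed the filter largely through the positive cells. For ecm1b, COLEC10 and CCNG2 every sum of positive cells met the filter, but not every sum of cells with none. Cells with none held 16 and 13 UMIs of ecm1b at 72 hpf and 28 and 14 at 48 hpf. The sizes of these genes are thus uncertain as well.

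Neither APCDD1L nor the 2 members with the highest atrial levels passed between these cells. APCDD1L had a log2 fold change of 0.42 ± 0.27 (adjusted p = 0.395), FHL2 one of -0.29 ± 0.25 (adjusted p = 0.555), and atp2a2a, higher in 4 of 4 libraries, one of 0.72 ± 0.23 (adjusted p = 0.0862). In the other direction, emid1 was lower in 4 of 4 libraries with a log2 fold change of -1.12 ± 0.34 (adjusted p = 0.0699). Positive cells held 3 and 0 UMIs of emid1 at 72 hpf and 44 and 2 at 48 hpf. Among the members below the filter on low counts were SLC7A10, TANC2, EGFR, BACH1, AVPR1A, ABLIM3, parp4, SVEP1 and mab21l2. In positive cells EGFR was lower in 4 of 4 libraries, and SLC7A10, TANC2, parp4 and mab21l2 in 3 of 4. BACH1 and SVEP1 were higher in 3 of 4, and AVPR1A and ABLIM3 in 2 of 4. Of these genes, the 72 hpf sqet33mi59BEt positive cells held 0 UMIs of all but SVEP1. The 48 hpf sqet33mi59BEt positive cells held 0 UMIs of EGFR, AVPR1A and parp4. A sum of 0 counts as lower wherever cells with none held a UMI, so these directions are not read. The counts over members tested, with 0 called lower, leave these genes out.

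Positive cells were deeper, with median UMIs of 3394 and 1102 at 72 hpf and 7167 and 3732 at 48 hpf against 1955 and 951.5 at 72 hpf and 3636 and 1663 at 48 hpf in cells with none. With the same groups thinned to 500 UMIs per cell, BAMBI, CLEC19A, ATP2B1 and atp2a2a were called higher, while MRAS, atp1b3b, SLC43A3 and sema3aa fell under the filter on low counts. The myh7l level of positive cells was 55.2 and 68.6 CPM at 72 hpf and 183 and 78.9 CPM at 48 hpf, against 64.9 and 201 CPM at 72 hpf and 376 and 153 CPM at 48 hpf in cells with none, and 11 members stayed higher among atrial cells without any myh7l UMI. Smooth muscle and bulbus markers (3 matched) summed to 209.8 and 0 CPM at 72 hpf and 1020 and 1499 CPM at 48 hpf in positive cells, against 95.3 and 95.3 CPM at 72 hpf and 297 and 489 CPM at 48 hpf in cells with none. Over all atrial cells most of this sum was acta2, which averaged 307 CPM in atrial and 275 CPM in ventricular cells. In the same edgeR test acta2 was itself higher in positive cells (log2 fold change 1.41, adjusted p = 0.0127). The epicardial markers other than TBX18 summed to 5.52 and 0 CPM at 72 hpf and 6.39 and 52.6 CPM at 48 hpf in positive cells, against 2.03 and 0 CPM at 72 hpf and 2.20 and 3.82 CPM at 48 hpf in cells with none. The part of smooth muscle RNA was not tested. With TBX18 not among the selecting genes, 14 members were called higher. Shares of all genes are not given here for this fit or for the fit without a myh7l UMI.

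Whether the sinoatrial contrast differed between stages was tested as an interaction in edgeR. None of the 51 members passed an adjusted p of 0.05, beside 5 of 2376 genes that did. At an unadjusted p below 0.05 there were 7 members, but the share of all genes at that limit was not taken. COLEC10 and NCS1 were called in both contrasts, higher in sinoatrial gene-positive cells and lower at 72 hpf. In atrial cells with none of the 7 genes, COLEC10 missed the threshold between stages (log2 fold change -1.28, adjusted p = 0.125) and NCS1 was under the filter. There SEMA4B was higher at 72 hpf with a log2 fold change of 2.25, and alpi.1 (-1.74), FHL2 (-1.51), LMOD2 and emilin2b were lower. In these cells LMOD2 held 13 and 5 UMIs and emilin2b 7 and 3 UMIs at 72 hpf. Both passed the filter through the 48 hpf libraries, so they are given no size there. SEMA4B held 23 and 15 UMIs at 48 hpf in these cells. PRKG1, called higher over all atrial cells, missed the threshold there (log2 fold change 1.29, adjusted p = 0.145).

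**Figure D5:**
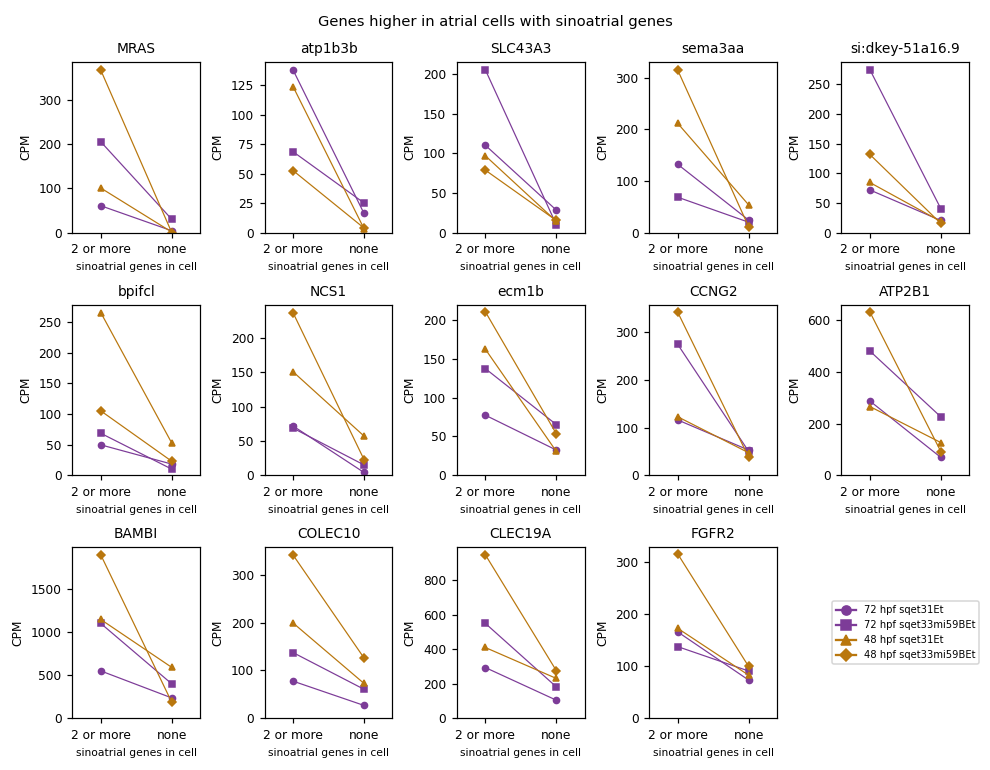
CPM of the 14 members called higher in atrial cells with at least 2 of 7 sinoatrial genes (left) than in atrial cells with none (right), with 1 line per library and the 72 hpf libraries in purple and the 48 hpf libraries in brown. Every line falls towards the right, and in the 72 hpf sqet33mi59BEt library the left point of atp1b3b, sema3aa, bpifcl and NCS1 is 1 UMI.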

How the data were processed

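Single cell RNA libraries of zebrafish hearts were made with 10x chemistry and sequenced by the authors, who counted UMIs with Cell Ranger on GRCz11 and clustered cells in Seurat, according to the submitters' processing notes. The deposited matrices hold raw UMI counts per gene and barcode, and the authors' metadata give the cluster, the percent of mitochondrial UMIs and the total counts of each kept cell. They kept cells within limits on genes and mitochondrial share and removed doublets.

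UMIs were summed per library and side and scaled to CPM by the total. Sums were tested in edgeR 4.0.16 (R 4.3.3) with TMM, filterByExpr, glmQLFit and glmQLFTest, with p-values adjusted by Benjamini-Hochberg over all genes tested and a threshold of 0.05. Stages were compared over 2 libraries each, and sinoatrial gene-positive cells with the library as a block. The alternatives were DESeq2 1.42.0, other scalings and filters, cells thinned to 500 UMIs, leaving out each library, and splits added after seeing the data. The edgeR fits were tested on simulated data. SE is the standard error of a log2 fold change.

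The members, gene lists and tests were chosen with earlier results of these data known. Genes given with values were the 10 highest in mean atrial CPM, the 10 with the largest lowest ratio, up to 6 per direction in each test, list members, up to 5 higher in another cluster, and 3 on each side of the ratio limit. Others were named after their values were seen. The values of 1 member are not reported here. Symbols came from a name table, which matched 23608 identifiers. Coordinates and promoter sequences were not used here.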

Additional observations from a re-analysis of the deposited data

How the results depend on the processing

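The number of genes meeting the rule was 61 and lay between 42 and 80 under 13 other settings, with 34 of the 61 kept when cells were thinned to 500 UMIs. For stage, 194 genes were higher and 50 lower at 72 hpf. The higher count was 113 with DESeq2, 336 with no filter, 70 with myosins differing by at least 3 UMIs and 39 thinned, and 83 to 312 leaving out a library. The lower count was 99 without TMM, 119 with no filter, 21 with the myosin margin, 15 thinned and 76 in cells with none of the sinoatrial genes, and 39 to 116 leaving out a library. Of the members, 2 were higher and 5 lower; DESeq2, the margin, thinning and cells with none of the sinoatrial genes each gave 1 higher, the margin and thinning each gave 2 lower, and library totals gave 8 lower. Leaving out a library gave 0 to 3 higher and 3 to 7 lower, with 0 higher and 3 lower without 48 hpf sqet31Et and 1 higher without 72 hpf sqet33mi59BEt. With the line as replicate block there were 336 genes higher and 156 lower, and 2 members higher and 9 lower; the deviations of libraries of the same line correlated at 0.097 over 5106 genes, so the line was not used as a pairing.

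In the sinoatrial comparison 77 genes were higher and 29 lower. Without the replicate block these were 11 and 1, with 4 members higher in place of 14. Thinning the same groups gave 30 genes and 4 members higher, no filter 50 genes lower and 7 members higher with 1 lower, and cells without a myh7l UMI 18 genes lower. Leaving out a library gave 36 to 109 genes higher, 6 to 83 lower, 9 to 17 members higher and 0 to 2 lower. Without 48 hpf sqet31Et 9 members were higher, and without 48 hpf sqet33mi59BEt 83 genes were lower. Library totals without TMM moved the median log2 fold change of all genes by 0.11. Of the named genes' tests, 66 of 87 for stage and 139 of 168 for sinoatrial genes kept their call, and 0 reversed. MRAS, SLC43A3 and sema3aa kept theirs under the 12 alternatives in which each could be tested, and atp1b3b under 11. With the same groups thinned none of these genes could be tested. In the main fit they passed the filter wholly or largely through the positive cells, so their kept calls are a description only. A split after thinning was not run, since 1 library alone kept enough cells. Causes were not tested. With 2 pools per stage, the smallest exact permutation p is 0.333, so that calls rest on the spread shared across genes in edgeR.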
